A study of Mus musculus with 12 samples.

Results

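The 10 genes described here encode class II myosin heavy chains of the mouse, and they were chosen by symbol: Myh1, Myh2, Myh3, Myh4, Myh6, Myh7, Myh7b, Myh8, Myh9 and Myh10. They were followed across skeletal muscle (hind limb) and heart of Tk2-/- mice and of Tk2+/+ mice, with 3 arrays for each of the 4 combinations. Tk2 encodes mitochondrial thymidine kinase, which supplies pyrimidine nucleotides for copying mitochondrial DNA. All mice were C57BL/6 and 11 days old, and the knockout was present in the whole body. The pups came from matings of heterozygous parents, with different animals within each group. By the methods, muscle and heart were taken from 3 mice of each genotype, so a muscle and a heart array can share an animal. The sample labels do not say which arrays do. Of 35556 probe sets on each array, 10 carried the symbol of 1 of these genes alone, and 9 of the 10 genes were measured in this way among 18820 genes. Myh6 shared its only probe set with Myh7, and Myh9 had 2 probe sets, of which the brighter was used. Values are linear probe set intensities, called signal, and differ in scale between probe sets, so that no gene was ranked against another.

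A myosin heavy chain carries the motor head that binds actin and splits ATP, and a coiled tail through which the molecules pack into thick filaments. In skeletal muscle the kind of heavy chain sets how fast a fibre shortens, and a fibre is called slow or fast, and type I, IIa, IIx or IIb, after the isoform it makes. Rodent muscle passes from embryonic and neonatal heavy chains to the adult ones around and after birth. The ventricle of the mouse likewise passes from the beta heavy chain (Myh7) to the alpha heavy chain (Myh6), and Myh7 is known as a gene that returns in stressed rodent hearts. Nonmuscle heavy chains (Myh9 and Myh10) serve contraction, adhesion and division in most cell types.

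Tk2, the disrupted gene, had a signal of 64.7, 44.1 and 48.7 in the Tk2-/- muscle arrays, against 62.9, 68.5 and 63.1 in Tk2+/+ muscle. It had 30.1, 46.2 and 31.7 in Tk2-/- heart, against 70.2, 73.6 and 81.8 in Tk2+/+ heart. The groups overlapped in muscle and not in heart, and since no source used here says whether the probes read the deleted stretch, these values do not check the labels. Tissue labels matched their markers, since 6 skeletal fibre genes summed to 34402 to 46579 in the muscle arrays and to 4065 to 7663 in the heart arrays, and 6 cardiomyocyte genes to 253 to 339 in muscle and to 26450.0 to 34794 in heart. The 3 Tk2-/- heart arrays were dimmer as a whole, with a mean signal of 147 to 168 against 227 to 243 in Tk2+/+ heart, while muscle arrays spanned 225 to 246 in Tk2-/- and 202 to 252 in Tk2+/+ mice. In heart the median log2 fold change of all genes was -0.28, and -0.68 over the 4051 genes with a mean signal above 256. Heart changes of the members that passed, and of the other genes that passed and are named, are therefore given also after quantile normalization within the tissue, which sets the 6 arrays of a tissue to 1 distribution.

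Skeletal muscle was set apart from heart by the fibre heavy chains in both genotypes. In Tk2-/- mice 8 of the 9 measured genes were higher in muscle than in heart, at a background of 59.5% of all genes, and none passed as lower, at a background of 4.55% (limma, adjusted p under 0.05 over 18820 genes, 0 lower also at an unadjusted p under 0.05). In Tk2+/+ mice 6 of the 9 (Myh1, Myh2, Myh3, Myh4, Myh7 and Myh8) were higher in muscle, by log2 fold changes of 4.0 (Myh7) to 7.45 (Myh1), and Myh7b, Myh9 and Myh10 were lower, at backgrounds of 30.6% and 18.4%. Myh9 had a log2 difference, muscle minus heart, of 1.06 in Tk2-/- mice and -0.30 in Tk2+/+ mice. Myh10 likewise stood on opposite sides of 0, with 0.93 in Tk2-/- mice and -0.88 in Tk2+/+ mice. Myh7b had -0.21 (adjusted p = 0.119) in Tk2-/- mice and -0.64 in Tk2+/+ mice. This contrast depended on scaling, since Myh7b had -0.44 (adjusted p = 0.00168) and -0.44 (adjusted p = 0.00146) after quantile normalization within tissues. Myh7 had 1.65 in Tk2-/- mice and 4.0 in Tk2+/+ mice. In Tk2-/- mice the higher muscle signal of Myh7 did not pass after quantile normalization (1.25, adjusted p = 0.0546). The Tk2+/+ value of Myh9 depended on scaling as well, since it was 0.11 (adjusted p = 0.308) once quantile normalization within tissues was applied. The signed difference between the genotype effects, muscle minus heart, passed above 0 for 41.3% of all genes and below 0 for 1.39%, or for 5.14% and 4.98% after quantile normalization, and it is given with each gene that passed. A difference above 0 can come from a fall in heart alone. The tissue and the genotype comparisons share arrays.

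**Figure D1:**
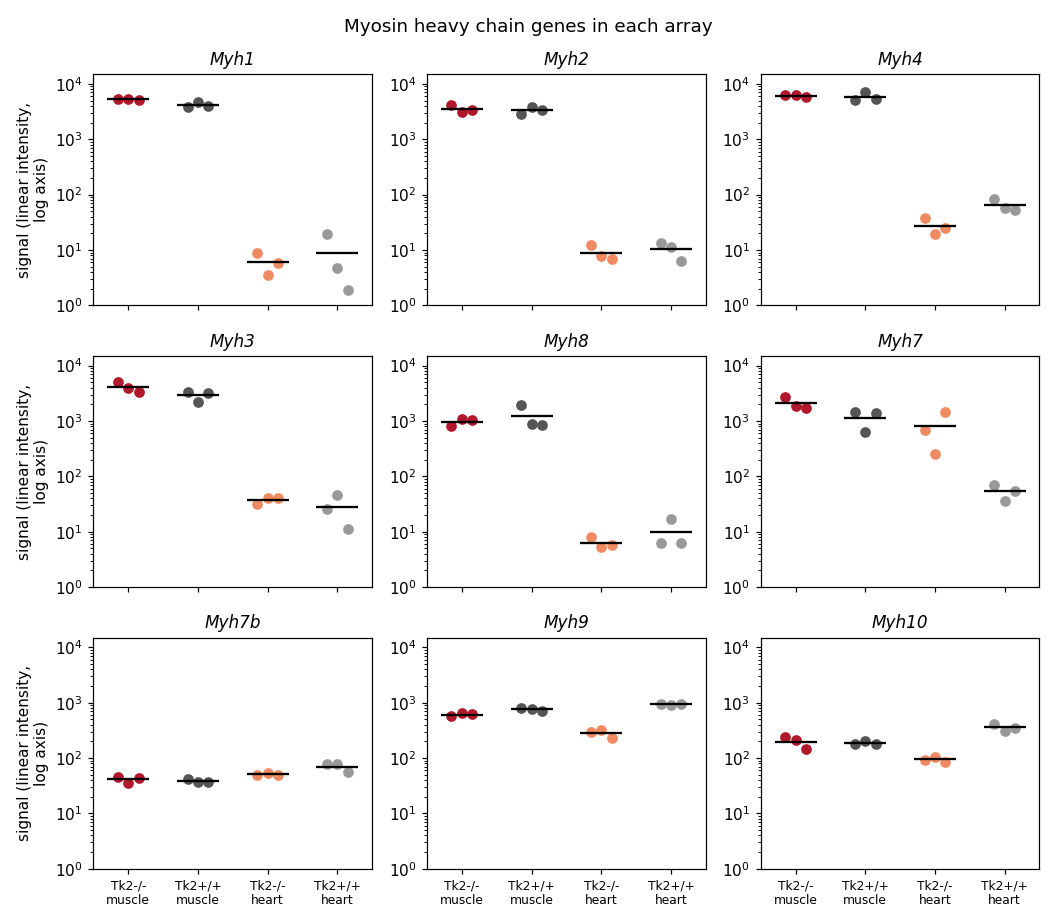
Signal of the 9 measured heavy chain genes in each of the 12 arrays (vertical log axis, linear intensity), with Tk2-/- left of Tk2+/+ in each tissue. Points are single arrays and bars are means of 3. Myh1, Myh2, Myh3, Myh4 and Myh8 lie far below their muscle level in all 6 heart arrays, and Myh7 is the gene whose Tk2-/- heart arrays (256 to 1460.0) stand well above the Tk2+/+ ones (36.5 to 71.0).

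Myh1, Myh2 and Myh4 encode the adult fast heavy chains of IIx, IIa and IIb fibres. They lie side by side on chromosome 11 in the order Myh3, Myh2, Myh1, Myh4, Myh8, from 67078273 (start of Myh3) to 67308634 (end of Myh8) on GRCm38.p6. The promoters of 4 of these 5 genes are shown because the genes share one pattern here, a muscle signal far above that in heart, and share a stretch of sequence as well. The longest run of letters common to the 250 bases before the start of Myh1, Myh2, Myh4 and Myh8 was 14 bases long, and it is in capitals below (RefSeq, GRCm38.p6, all on the plus strand, 40 flanking bases on each side).
Myh1, chr11:67199902-67199995: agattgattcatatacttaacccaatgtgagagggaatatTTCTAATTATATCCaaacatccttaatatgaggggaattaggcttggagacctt
Myh2, chr11:67170862-67170955: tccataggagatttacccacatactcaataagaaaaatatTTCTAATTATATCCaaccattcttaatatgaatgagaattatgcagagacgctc
Myh4, chr11:67237614-67237707: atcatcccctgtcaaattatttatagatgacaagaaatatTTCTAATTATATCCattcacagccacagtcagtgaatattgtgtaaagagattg
Myh8, chr11:67277030-67277123: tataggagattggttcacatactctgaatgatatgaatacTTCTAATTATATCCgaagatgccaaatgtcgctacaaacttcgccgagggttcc
The run begins 160 bases before the listed start in Myh1, 125 in Myh2, 158 in Myh4 and 54 in Myh8, and it is absent from the window of Myh3. On either strand it occurred in 4 of 32851 promoter windows of 300 bases, or 0.0122%, which are these 4 windows. It was picked by comparing the members with each other, so the rarity describes the letters and is no test. TATAAA, the TATA box, was found on either strand in windows of 7 of the 10 genes and in 13.6% of all windows, and neither it nor the other motifs named below overlaps the 14 bases.

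With the spread shared by both tissues, none of the adult fast genes passed the test between genotypes in muscle. Since their coding sequences are closely alike, signal shared between their probe sets is uncertain. Myh1 had a signal of 5276, 5423 and 5097 in Tk2-/- muscle, against 3825, 4699.6 and 3943 in Tk2+/+ muscle. The genotypes did not overlap, and the log2 fold change was 0.35 ± 0.19 (SE, n = 3 per group, limma adjusted p = 0.240). This SE takes in the spread of the heart arrays, where Myh1 was dim. With muscle fitted alone the same change passed (limma adjusted p = 0.0389), and after quantile normalization it was 0.20 (adjusted p = 0.476). Myh2 had 4206, 3170.0 and 3315 in Tk2-/- muscle, against 2884, 3844 and 3399 in Tk2+/+ muscle. These arrays were interleaved, with a log2 fold change of 0.08 and a 95% interval of -0.23 to 0.38. Myh4 had 6206, 6338 and 5833 in Tk2-/- muscle, against 5171, 7059.7 and 5371 in Tk2+/+ muscle. Its Tk2-/- arrays all fell inside the range of Tk2+/+, with a log2 fold change of 0.08 (95% interval -0.28 to 0.43). The widest of these intervals, that of Myh1, reached 0.75.

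In heart Myh1 and Myh2 were near the bottom of the scale, and Myh4 alone of the 3 passed the test. Myh4 had a signal of 37.6, 19.6 and 25.2 in Tk2-/- heart, against 82.6, 57.7 and 52.5 in Tk2+/+ heart. Every Tk2-/- array was below every Tk2+/+ array, and the log2 fold change was -0.89 ± 0.16 (SE, adjusted p = 0.000282), or -0.52 (adjusted p = 0.0153) after quantile normalization within the tissue. Myh1 stayed between 3.47 and 8.97 in Tk2-/- heart and between 1.93 and 19.7 in Tk2+/+ heart. Myh2 lay between 6.92 and 12.2 in Tk2-/- heart and between 6.38 and 13.5 in Tk2+/+ heart. At such signals the offset of 16 added before the log2 dominates the fold change, and both genes overlapped between genotypes. Changes of Myh4 differed between the tissues by 0.96 on the log2 scale (muscle minus heart, adjusted p = 0.00351), but by 0.46 (adjusted p = 0.175) after quantile normalization.

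The genes whose pattern was most like that of Myh4 over the 12 arrays, after the mean of each tissue was subtracted, were Dus3l (Pearson r = 0.976), Atp2a1, the calcium pump of fast fibres (r = 0.973), and Tnni2, the fast troponin I (r = 0.965). These are correlations across arrays that share the genotype difference and overall brightness, and they are given as a description. The skeletal fibre marker list moved with Myh4 in heart: 5 of its 6 genes were lower in Tk2-/- heart and none higher, against 49.0% and 1.99% of all genes, and 4 were lower after quantile normalization, against 15.9%. By the methods' t-test 2 of the 6 passed in heart after Benjamini-Hochberg adjustment. The summed signal was 4065 to 4794 in Tk2-/- against 7390.4 to 7663 in Tk2+/+ heart. Most of that sum in heart was Ckm, the muscle creatine kinase, which heart also expresses. Ckm had a log2 fold change of -0.51, or -0.06 (adjusted p = 0.465) after quantile normalization. Acta1, a skeletal actin also known as a fetal heart gene, came next, with means of 105 in Tk2-/- and 1404 in Tk2+/+ heart. Tnnt3, Actn3, Pvalb and Atp2a1 had means of 17.5 to 27.4 in Tk2-/- and 30.7 to 64.3 in Tk2+/+ heart. The sum therefore says little about these dim markers. None of the 6 was at 0. Whether fewer cells or less RNA per cell stood behind a lower signal cannot be told apart in whole tissue, and the part of skeletal muscle RNA in the heart values of Myh4 was not tested.

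Myh3 and Myh8 encode the embryonic and neonatal heavy chains, which both had a far higher signal in muscle than in heart at 11 days. Myh3 had a signal of 5090.4, 3968 and 3389 in Tk2-/- muscle, against 3289.7, 2205 and 3208 in Tk2+/+ muscle. All 3 Tk2-/- arrays were above all Tk2+/+ arrays, though the lowest of Tk2-/- and the highest of Tk2+/+ were close, and the log2 fold change was 0.52 ± 0.24 (SE, adjusted p = 0.150). Myh8 had 824, 1066 and 1047 in Tk2-/- muscle, against 1946, 882 and 831 in Tk2+/+ muscle. The first Tk2+/+ array stood apart from the other 5, and the log2 fold change of -0.21 (adjusted p = 0.654) turned to as much as 0.18 when single arrays were left out.

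In heart Myh3 had a signal of 31.4, 40.6 and 41.0 in Tk2-/- mice, against 25.9, 45.8 and 11.1 in Tk2+/+ mice. The wide Tk2+/+ spread covered all Tk2-/- arrays, with a log2 fold change of 0.37 (adjusted p = 0.223). Without the second Tk2+/+ heart array it was 0.67 (adjusted p = 0.0174), and with the median of each array set equal 0.82 (adjusted p = 0.00701), so that the test of Myh3 in heart depended on 1 array and on scaling. Myh8 in heart was between 5.30 and 7.93 in Tk2-/- mice and between 6.27 and 16.8 in Tk2+/+ mice.

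Some other genes of developing muscle were lower. Of 7 such genes, 4 were lower in Tk2-/- muscle and none higher, against 10.9% lower and 11.6% higher among all genes, with a median log2 fold change of -0.40 against -0.02 for all genes. Myog, the myogenin transcription factor of differentiating myoblasts, had a signal of 89.9, 36.3 and 70.9 in Tk2-/- muscle, against 322, 234 and 166 in Tk2+/+ muscle. Its log2 fold change was -1.66 (adjusted p = 9e-05). Actc1, the actin of developing muscle and of adult heart, had 2411, 2507 and 2420.4 in Tk2-/- muscle, against 6656, 8765 and 6565 in Tk2+/+ muscle, a log2 fold change of -1.56 (adjusted p = 8.82e-07). Tnnt2, the cardiac troponin T that fetal muscle also makes, fell by 0.47 on the log2 scale. The 3 that did not pass were Myl4 (-0.38), Ncam1 (-0.08) and Cdh15 (0.001). Of 5 myoblast markers, which include Myog and Cdh15 of the same list, 3 were lower, none higher and none at 0, with a summed signal of 390.2 to 705 in Tk2-/- against 711 to 1127 in Tk2+/+ muscle.

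Myh7 encodes the beta heavy chain, which is the heavy chain of slow skeletal fibres and of the fetal ventricle. Its promoter is shown because in heart it was the member with the largest change. The 300 bases before the listed start nearer to the gene body (chr14:54994550-54994849, GRCm38.p6, RefSeq, minus strand) hold in capitals 1 match to the M-CAT motif, CATTCC or its complement GGAATG, which TEAD factors bind, and the letters TATATA, which begin 31 bases before the start.
Myh7 promoter: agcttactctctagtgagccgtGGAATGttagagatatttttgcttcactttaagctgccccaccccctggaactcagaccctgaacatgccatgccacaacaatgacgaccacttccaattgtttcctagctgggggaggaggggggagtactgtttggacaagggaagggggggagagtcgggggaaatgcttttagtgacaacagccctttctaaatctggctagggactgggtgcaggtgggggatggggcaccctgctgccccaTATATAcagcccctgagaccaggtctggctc
Among the 10 genes the M-CAT letters occurred on either strand in the windows of Myh1, Myh4, Myh6, Myh7 and Myh10, 5 of 10, and in 14.7% of all windows. TATATA occurred in windows of Myh3 and Myh7 and in 5.67% of all windows. These matches are letters in a window and were not tied to any measured binding.

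In muscle Myh7 had a signal of 2719, 1861 and 1712 in Tk2-/- mice, against 1427, 628 and 1387 in Tk2+/+ mice. All Tk2-/- arrays were above all Tk2+/+ arrays, and the mean was 1.83 times as high. With the spread shared by both tissues the log2 fold change of 0.92 ± 0.45 (SE) did not pass (adjusted p = 0.177). With muscle fitted alone the same 0.92 passed (adjusted p = 0.0402), as it did without the second Tk2-/- heart array (adjusted p = 0.0453), an array that is not part of the comparison and enters through the shared spread alone.

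In heart Myh7 had a signal of 694, 256 and 1460.0 in Tk2-/- mice, against 71.0, 36.5 and 54.1 in Tk2+/+ mice. The lowest Tk2-/- array was above the highest Tk2+/+ array, but the Tk2-/- arrays spread widely, with a mean of 803 ± 609.6 against 53.9 ± 17.3 (SD, n = 3 each). The log2 fold change was 3.27 ± 0.45 (SE, adjusted p = 2.48e-05), and 3.81 (adjusted p = 0.000211) after quantile normalization. It stayed between 2.68 and 3.90 when each array was left out in turn. On the deposited values Myh7 alone of the 9 genes was up-regulated in heart, at a background of 1.99% of all genes higher, and of 16.1% after quantile normalization. The change in muscle lay below that in heart on the log2 scale (difference -2.34, adjusted p = 0.00743), and the difference was -3.05 (adjusted p = 0.0221) after quantile normalization.

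Heart arrays also differed in genes of the atrium, and no source used here says which chambers were taken. Myl7, the atrial regulatory light chain, had a signal of 1966, 144 and 1882 in Tk2-/- heart, against 13.3, 580.2 and 2641 in Tk2+/+ heart. Myl4, the atrial essential light chain, had 4644, 703 and 4274 in Tk2-/- heart, against 269, 2418 and 6874 in Tk2+/+ heart. Nppa, the atrial natriuretic peptide, had 5422, 3543 and 5157 in Tk2-/- heart, against 705, 2826 and 5742 in Tk2+/+ heart. These genes, picked after their values were seen, overlapped between genotypes, with adjusted p of 0.438, 0.663 and 0.0907. Among the Tk2-/- hearts Myh7 was lowest in the array with the lowest Myl7, Myl4 and Nppa, whereas the third Tk2+/+ heart had the highest signal of all 6 for each of these 3 genes and a Myh7 signal of 54.1. The part of atrial RNA in the spread of Myh7 among Tk2-/- hearts was not tested.

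**Figure D2:**
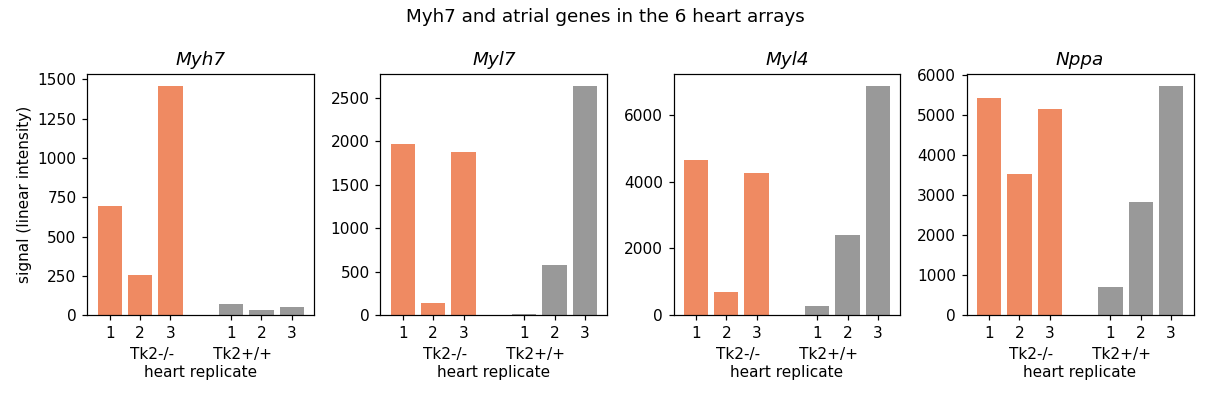
Signal (linear intensity, axis from 0, a separate scale for each gene) of Myh7 and of the atrial genes Myl7, Myl4 and Nppa in the 3 Tk2-/- and the 3 Tk2+/+ heart arrays, 1 bar per array. Myh7 is above 255 in the Tk2-/- arrays and below 72 in the Tk2+/+ arrays, while the atrial genes overlap between genotypes and are highest in Tk2+/+ array 3 for all 3 genes.

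Myh6, the alpha heavy chain of atrium and adult ventricle, could not be read alone. The probe set annotated to both Myh7 and Myh6 had a signal of 5891, 6687 and 5806 in Tk2-/- heart, against 7608, 7916 and 7624 in Tk2+/+ heart. It was lower in every Tk2-/- heart, where the Myh7 probe set was higher, and it was between 30.3 and 47.9 in Tk2-/- muscle and between 24.5 and 33.4 in Tk2+/+ muscle, where the Myh7 probe set was bright. A further probe set, annotated to Myh7 and to Mhrt, an antisense RNA of the Myh7 locus, had 374, 472 and 423 in Tk2-/- heart, against 516, 636 and 583 in Tk2+/+ heart. Neither probe set could be given to 1 gene, so they entered no test. Their heart values are deposited ones, from Tk2-/- arrays that were dimmer as a whole. On that scale the median log2 fold change in heart was -0.68 over genes with a mean signal above 256. A lower signal of these 2 probe sets relative to other genes is therefore not shown. Myh6 lies next to Myh7 on chromosome 14, from 54941921 to 54968017, and Myh7 from 54970684 to 54994626.

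Genes most like Myh7 over the 12 tissue-centred arrays were Rnase1 (Pearson r = 0.967), Tmem71 (r = 0.953) and Dusp4, a phosphatase of MAP kinases (r = 0.927). Of 7 other genes known from stressed hearts 4 were lower in Tk2-/- heart and none higher, against 49.0% lower and 1.99% higher among all genes, with a median log2 fold change of -0.55. After quantile normalization 1 was higher and 2 were lower, against 16.1% and 15.9% of all genes. The higher one was Nppb, with a log2 fold change of 0.67 (adjusted p = 0.00147), against 0.08 (adjusted p = 0.695) on the deposited values. Nppa had 1.03 (adjusted p = 0.0907) on the deposited values and did not pass after quantile normalization either (adjusted p = 0.0531). Acta1, the skeletal actin that is grouped with Myh7 as a fetal gene, had 111, 117 and 86.4 in Tk2-/- heart, against 1469, 1221 and 1523 in Tk2+/+ heart. This fall, of -3.56 on the log2 scale (adjusted p = 1.23e-09), or -2.90 after quantile normalization, ran opposite to Myh7 in the same arrays. Xirp2 and Xirp1, which encode actin-binding proteins of the cell junctions, had log2 fold changes of -1.66 and -0.59, and of -0.97 and 0.08 (adjusted p = 0.768 for Xirp1) after quantile normalization.

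Of 11 slow fibre genes 8 rose in Tk2-/- muscle and 1 fell, against 11.6% higher and 10.9% lower among all genes, with a median log2 fold change of 0.86. After quantile normalization 5 were higher and 1 was lower, at a background of 14.5% and 14.6%. By the methods' t-test 6 of the 11 had an unadjusted p under 0.05 and 1 passed after Benjamini-Hochberg adjustment. The genes that did not pass were Myl2, the slow regulatory light chain (-0.19), and Tnni1, the slow troponin I (0.58). Tpm3, the slow tropomyosin, had a signal of 7108, 4773 and 4841 in Tk2-/- muscle, against 2091, 1212 and 2303 in Tk2+/+ muscle. The genotypes were well apart, with a log2 fold change of 1.60 (adjusted p = 0.000192). Ankrd2 and Csrp3, stretch-responsive proteins of slow muscle and heart, rose by 1.49 and 1.41. The gene that fell was Casq2, which encodes the calcium-binding protein of slow and cardiac sarcoplasmic reticulum, with 698, 427 and 441 in Tk2-/- muscle against 1197, 949 and 970.5 in Tk2+/+ muscle. In heart none of the 11 rose and 5 fell, with a median of -0.42, a share lower that did not exceed the 49.0% of all genes, and 1 was lower after quantile normalization, against 15.9%.

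The partners of the fast heavy chains did not pass in muscle: none of 11 was higher or lower by limma (lowest adjusted p = 0.425, 0 at an unadjusted p under 0.05 by limma or by the methods' t-test), with a median log2 fold change of 0.07. In Tk2-/- heart 8 of the 11 were lower (background 49.0%), and 7 after quantile normalization (background 15.9%). Tnnt3, Actn3, Pvalb and Atp2a1 are also in the skeletal fibre marker list, so the counts of these lists are not separate. By the methods' t-test 5 of the 11 had an unadjusted p under 0.05 in heart and 3 passed after Benjamini-Hochberg adjustment. Many of these signals were dim in heart. Pvalb, counted as lower, had 25.0, 15.4 and 15.3 in Tk2-/- heart, against 98.2, 39.2 and 21.4 in Tk2+/+ heart, which overlapped. Casq1, the fast calsequestrin, had 60.7, 68.5 and 34.3 in Tk2-/- heart, against 660.0, 631 and 428 in Tk2+/+ heart. Its log2 fold change was -3.07 (adjusted p = 9.68e-08), and -2.47 after quantile normalization. Myl1, the fast essential light chain, and Mybpc2, the fast myosin-binding protein C, had log2 fold changes of -1.65 and -1.09 in heart, and of -1.04 and -0.70 after quantile normalization.

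**Figure D3:**
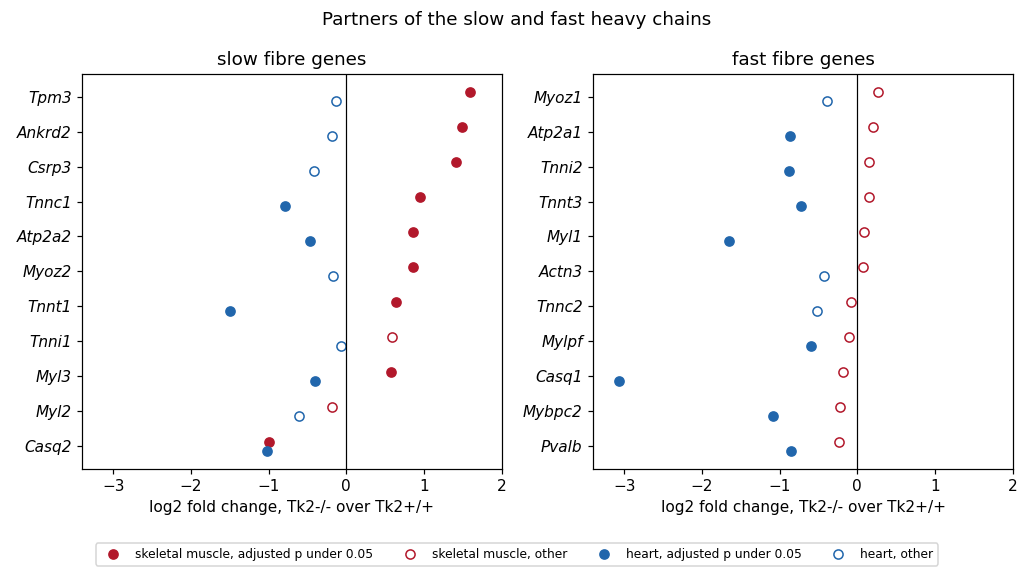
Log2 fold change (horizontal axis, Tk2-/- over Tk2+/+, deposited values) of the 11 slow fibre genes at left and the 11 fast fibre genes at right, ordered by their value in muscle. Red points are skeletal muscle and blue points heart, filled where the adjusted p was under 0.05. In muscle 8 slow genes are filled to the right of 0 and no fast gene is filled, and all heart points lie to the left of 0.

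Of 24 measured regulators of the choice of heavy chain, 3 were higher and 4 lower in Tk2-/- muscle, against 11.6% and 10.9% of all genes. Maf, a transcription factor of fast IIb fibres, had a log2 fold change of -0.78 (adjusted p = 0.00132). Six4, a homeobox factor of fast fibres, rose by 0.57, and Thrb, a thyroid hormone receptor, rose by 0.49. After quantile normalization 3 were higher and 8 lower in muscle, against 14.5% and 14.6%. In heart 16 of the 24 were lower and none higher, against 49.0% and 1.99% of all genes, but 2 were higher and 2 lower after quantile normalization, against 16.1% and 15.9%. Mef2c and Sox6, which act in heart and fibre development, and Rcan1, an inhibitor of calcineurin, had heart log2 fold changes of -1.03, -0.84 and -0.94. After quantile normalization they had -0.34 (adjusted p = 0.00994), -0.19 and -0.26, and Mef2c alone of the 3 passed.

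Myh7b encodes a further sarcomeric heavy chain of slow fibres and heart, and it did not pass between genotypes in muscle. It had a signal of 46.3, 35.5 and 43.3 in Tk2-/- muscle, against 42.0, 37.5 and 36.7 in Tk2+/+ muscle, with overlapping arrays and a log2 fold change of 0.07 (95% interval -0.18 to 0.32). In heart it had 49.3, 53.3 and 49.3 in Tk2-/- mice, against 77.2, 77.3 and 55.3 in Tk2+/+ mice. The genotypes did not overlap and the log2 fold change was -0.36 (adjusted p = 0.0168), but this was near the median of all genes (-0.28), and it turned to 0.15 (adjusted p = 0.263) after quantile normalization within the tissue. The fall of Myh7b in heart therefore depended on the scaling, and the rise of Myh7 in the same hearts did not. The difference between the tissues was 0.43 (adjusted p = 0.0464), and 0.01 (adjusted p = 0.982) after quantile normalization. Genes most like Myh7b were Gm5431 (Pearson r = 0.927), Ttc39c (r = 0.925) and Teddm1a (r = 0.921).

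Myh6, Myh7 and Myh7b each hold a microRNA gene within their bounds, Mir208a, Mir208b and Mir499, and these microRNAs are known as part of the control of slow and beta heavy chain genes. Their mature sequences are shown because of how alike their seeds are (RefSeq, 5′ to 3′, bases 2 to 8 in capitals).
miR-208a-3p, in Myh6: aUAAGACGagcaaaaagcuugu
miR-208b-3p, in Myh7: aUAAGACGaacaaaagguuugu
miR-499-5p, in Myh7b: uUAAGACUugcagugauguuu
The microRNAs of Myh6 and Myh7 share the seed UAAGACG, and that of Myh7b has UAAGACU. The arrays measure precursor or primary transcripts of such genes at best. Mir208a had a signal of 16.8, 32.0 and 26.4 in Tk2-/- heart, against 42.9, 32.1 and 27.2 in Tk2+/+ heart, which overlapped (adjusted p = 0.131), and at most 8.01 in muscle. Mir499 stayed between 7.84 and 17.6 in all 12 arrays. Mir208b was not measured by a probe set of its own, so the microRNA in Myh7 has no value here.

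Myh9 and Myh10 encode the nonmuscle heavy chains IIA and IIB, and both were down-regulated in Tk2-/- heart. Myh9 had a signal of 299.9, 319 and 235 in Tk2-/- heart, against 948, 913 and 960.5 in Tk2+/+ heart. The groups were far apart, with a log2 fold change of -1.68 ± 0.11 (SE, adjusted p = 1.43e-07), and -0.98 (adjusted p = 1.68e-05) after quantile normalization. Myh10 had 93.7, 107 and 85.8 in Tk2-/- heart, against 420.5, 309 and 357 in Tk2+/+ heart. Its log2 fold change was -1.76 ± 0.15 (SE, adjusted p = 9.05e-07), and -1.09 (adjusted p = 4.16e-05) after quantile normalization. Both fell by more than the median of all genes and of the brighter genes, and both still passed after the arrays of the tissue had been set to 1 distribution.

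In muscle neither nonmuscle gene passed on the deposited values with the spread shared by both tissues. The genes Myh9 and Myh10 were not tested against each other. Myh9 had a signal of 565, 639 and 619 in Tk2-/- muscle, against 786, 773 and 720.4 in Tk2+/+ muscle. Every Tk2-/- array was lower, and the log2 fold change of -0.32 ± 0.11 (SE) lay just outside the threshold (adjusted p = 0.0505), whereas it was -0.44 (adjusted p = 0.00274) after quantile normalization. Myh10 had 239, 212 and 146 in Tk2-/- muscle, against 182, 201 and 183 in Tk2+/+ muscle. Its Tk2-/- arrays lay on both sides of the Tk2+/+ arrays, with a log2 fold change of 0.04 (95% interval -0.28 to 0.37). The changes differed between the tissues for Myh9 by 1.36 (adjusted p = 4.22e-05) and for Myh10 by 1.80 (adjusted p = 5.57e-05), and by 0.54 (adjusted p = 0.0205) and 1.12 (adjusted p = 0.00154) after quantile normalization. The dimmer probe set of Myh9 had 28.1, 29.5 and 25.4 in Tk2-/- heart, against 47.1, 50.8 and 57.3 in Tk2+/+ heart, lower in the same way.

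Most markers of cells rich in nonmuscle myosin were lower on the deposited values in the same hearts, where 49.0% of all genes were lower. All 6 fibroblast genes were lower, with a summed signal of 4833 to 5258 in Tk2-/- against 8189 to 10019 in Tk2+/+ heart, as were all 6 leucocyte genes, with 500.2 to 593 against 1346 to 1716. All 5 endothelial genes were lower, with 3171 to 4060.4 in Tk2-/- against 6349 to 7425 in Tk2+/+ heart, and 4 of 5 smooth muscle genes, with 1493 to 2121 against 5949.5 to 7158. These sums are deposited values, and the Tk2-/- heart arrays were dimmer as a whole. After quantile normalization 4, 5, 3 and 2 genes of these lists were lower, against 15.9% of all genes. There 1 fibroblast gene was higher, against 16.1% of all genes. In muscle 4 of the 6 fibroblast genes were lower and 1 higher, against 10.9% and 11.6% of all genes. Their summed signal was 6869 to 8410.2 in Tk2-/- against 11783 to 13521 in Tk2+/+ muscle. The other lists changed less in muscle. Of 6 leucocyte genes 1 was higher and none lower there. Of 5 endothelial genes 1 was lower, and of 5 smooth muscle genes 2 were lower, with none higher in either list. None of these markers was at 0 in any group, and their part in the values of Myh9 and Myh10 was not tested.

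The genes most like Myh9 were Nlk (Pearson r = 0.993), Kcnab1 (r = 0.992) and Macf1, which links actin to microtubules (r = 0.991). Those most like Myh10 were Dhrs7 (r = 0.991), Fndc3b (r = 0.990) and P3h4 (r = 0.989). Such values near 1 share the brightness difference between the heart arrays. Of 8 measured light chains of smooth muscle and nonmuscle myosin and their kinases and phosphatase, 7 were lower in Tk2-/- heart and 2 after quantile normalization, against 49.0% and 15.9% of all genes. Myl6, the essential light chain of nonmuscle myosin, had log2 fold changes of -1.44 in heart, or -0.77 after quantile normalization, and of -0.45 (adjusted p = 0.0118) in muscle. In muscle Myl6 and Myl9, a regulatory light chain (-0.97, adjusted p = 0.00897), were the only genes of the list that passed, both lower.

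Further class II heavy chain genes lie outside the 10. Of Myh11, Myh13, Myh14 and Myh15, the one coding for nonmuscle IIC heavy chain, Myh14, was the one that passed in muscle, with a signal of 213, 233 and 186 in Tk2-/- mice against 78.3, 103 and 85.4 in Tk2+/+ mice. The arrays were far apart (log2 fold change 1.11, adjusted p = 4.15e-06), and Myh9 and Myh10 showed no such rise in the same arrays. In heart Myh14 had a log2 fold change of 0.05 (adjusted p = 0.744), but 0.73 (adjusted p = 0.000254) after quantile normalization. The smooth muscle gene Myh11 had -0.82 (adjusted p = 6.74e-05) in heart and -0.12 (adjusted p = 0.505) after quantile normalization.

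Over the 9 measured genes, none passed in muscle in either direction at adjusted p under 0.05, against 22.5% of all genes in either direction. This rests on a spread shared with the heart arrays. With muscle fitted alone Myh1 and Myh7 passed as higher and Myh9 as lower. After quantile normalization Myh9 passed as lower (limma adjusted p = 0.00274), where 14.6% of all genes were lower. At an unadjusted p under 0.05 limma had 1 higher (Myh3) and 1 lower (Myh9), and the methods' t-test had Myh1 and Myh9, with 0 after Benjamini-Hochberg adjustment. The genotypes did not overlap for 4 of the 9 (Myh1, Myh3, Myh7 and Myh9), at a background of 35.7%. In heart 1 was higher and 4 were lower, against 51.0% of all genes in either direction and 49.0% lower, and after quantile normalization 1 was higher and 3 lower against 31.9%. The share of members called in heart was thus near the background on the deposited values. With an unadjusted p under 0.05 in the methods' t-test and at least a 2-fold change, both on values raised by 16, Myh7, Myh9 and Myh10 passed in heart and none in muscle. Myh4 in heart also had an unadjusted p under 0.05 and did not reach this fold on that scale, but its mean signal without the added 16 was 0.427 times that of Tk2+/+ heart, a change of more than 2-fold.

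**Figure D4:**
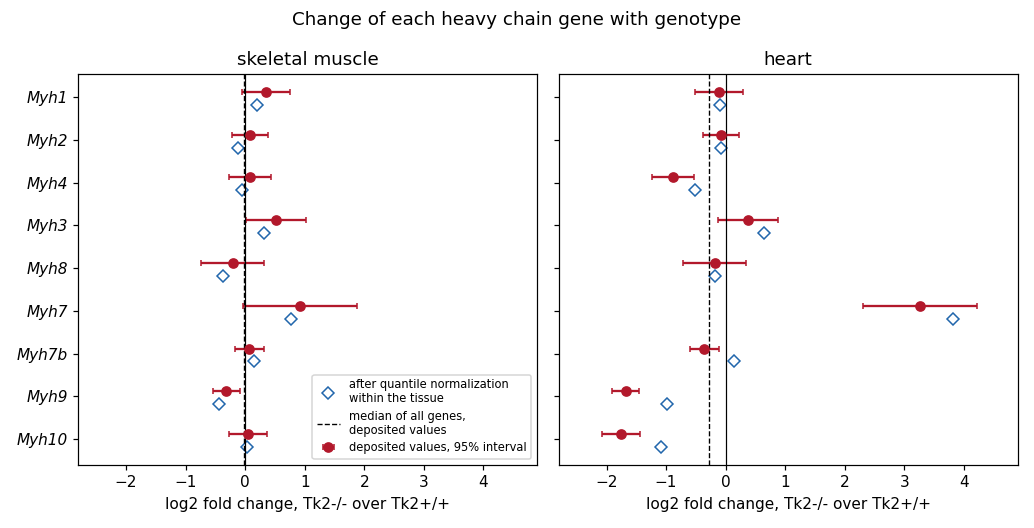
Log2 fold change (horizontal axis, Tk2-/- over Tk2+/+) of the 9 measured heavy chain genes in skeletal muscle at left and heart at right. Red points are deposited values with 95% intervals from limma, blue diamonds the values after quantile normalization within the tissue, and the dashed line the median of all genes (-0.02 in muscle, -0.28 in heart). Myh7 is far to the right in heart (3.27), Myh9 and Myh10 are to the left (-1.68 and -1.76), and in muscle no gene goes beyond 0.92.

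Of 11 measured partners of the heavy chains in the thick filament and M-band, 3 were higher and 1 lower in Tk2-/- muscle, against 11.6% and 10.9% of all genes. Trim63, the ubiquitin ligase MuRF1 that marks heavy chains for breakdown, had a signal of 3542, 5192 and 3774 in Tk2-/- muscle, against 558, 769 and 550.1 in Tk2+/+ muscle. This was the largest change among these partners in muscle, with a log2 fold change of 2.70 (adjusted p = 1.86e-08). Trim55 and Trim54, its relatives at the sarcomere, had -0.97 and 0.66. In heart 1 was higher and 5 lower on the deposited values, against 1.99% and 49.0% of all genes, and 3 were higher and 2 lower after quantile normalization, against 16.1% and 15.9%. The gene higher on the deposited values was Myom2, an M-band protein of fast fibres and heart, with 4159, 4171 and 3959 in Tk2-/- heart, against 2455, 2150.3 and 2909.6 in Tk2+/+ heart (log2 fold change 0.72, adjusted p = 0.000299, and 1.22 after quantile normalization). Of 4 measured folding factors of the heavy chain, Smyd1, a methyltransferase needed for thick filament assembly, was the one lower in muscle (-0.50, adjusted p = 0.0108), and all 4 were lower in heart, 3 after quantile normalization. Of 7 sarcomeric light chains 2, Myl10 and Myl3, were higher in muscle, by 0.80 and 0.58, and neither passed after quantile normalization.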

How the data were processed

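RNA of hind limb muscle and heart was hybridised to 12 Affymetrix Mouse Gene 1.1 ST arrays, 1 per sample and 3 per group. The authors deposited 1 linear intensity per probe set. Affymetrix Expression Console and PLIER, with no version, stand in the submitters' processing notes, and the methods state that data were normalized without naming how. Of 35556 probe sets 21218 had 1 symbol, and the brightest per symbol left 18820 genes. Log2(intensity + 16) was fitted with limma 3.58.1 in R 4.3.3 as 4 group means (8 residual degrees of freedom), with two-sided tests and Benjamini-Hochberg adjustment over all genes at 0.05. Fold changes are on this scale and are understated for dim genes. The fit was tested on simulated data. All members were named, and up to 3 called genes of each list with the largest change, and the 3 genes most like each called member. Members and lists were chosen with earlier results of these data known. Sequences and positions come from RefSeq (GRCm38.p6), and all 10 genes matched. Figures were drawn with Python 3.11.15 and matplotlib 3.10.9. Replicate numbers were not used to pair the arrays. The main fit treats all arrays as independent, although muscle and heart can come from the same animals. The probes' own sequences were not used, so that signal shared between the closely related fast heavy chains is uncertain. Another 14 settings and the omission of each of 12 arrays were tried as alternatives, 1 of them (upper quartile scaling) chosen after the data were seen.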

Additional observations from a re-analysis of the deposited data

Results flagged for a closer look

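The effect of genotype differed between the tissues, by the test of the difference itself, for 5 heavy chain genes. The log2 fold change in muscle minus that in heart was 0.96 for Myh4, -2.34 for Myh7, 0.43 for Myh7b, 1.36 for Myh9 and 1.80 for Myh10 (limma, adjusted p of 0.00351, 0.00743, 0.0464, 4.22e-05 and 5.57e-05). Of all genes 41.3% had a positive and 1.39% a negative difference past the threshold. With quantile normalization by tissue Myh7, Myh9 and Myh10 still passed, with -3.05, 0.54 and 1.12, and 5.14% and 4.98% of all genes did. Myh4 and Myh7b did not pass then.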

How the results depend on the processing

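With arrays set to equal upper quartiles, 2 genes were higher and 2 (Myh9 and Myh10) lower in heart, and 1 was lower in muscle. Myh4 in heart lost its call there (limma adjusted p = 0.0774). With the same scaling 2 genes had a signed difference of effects (muscle minus heart) above 0, and 1 was lower in muscle than in heart in Tk2-/- mice. Quantile normalization, within each tissue or over the 12 arrays, gave 1 (Myh9) lower in muscle, 2 with a difference of effects above 0 and 1 (Myh7b) lower in muscle than in heart in Tk2-/- mice. Equal medians gave 3 higher in heart (Myh2, Myh3 and Myh7) and 1 (Myh7b) lower between Tk2-/- tissues. With each tissue fitted alone 2 genes (Myh1 and Myh7) were higher and 1 (Myh9) lower in muscle, and Myh9 also passed as lower with dim genes left out (9271 genes kept) and with array weights, where 1 gene was lower between Tk2-/- tissues. A prior with trend and robust estimation left 0 genes with a difference of effects below 0 (Myh7, adjusted p = 0.0551). Leaving out single arrays gave 0 to 1 higher and 0 to 1 lower in muscle, 1 to 2 higher and 3 to 4 lower in heart, and 3 to 5 with a difference of effects above 0. The arrays behind these changes were Tk2+/+ heart 1 (Myh1 passed) and Tk2-/- heart 2 (Myh7 and Myh9 passed) and 3 (Myh9 passed) for muscle, and Tk2+/+ heart 2 (Myh3 passed) for heart. Causes were not tested.

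Values that changed sign and had passed under at least 1 of the settings compared were Myh2 in heart with equal medians (0.36), Myh7b in heart with equal medians (0.088), quantile normalization within the tissue (0.15) or over 12 arrays (0.14) and equal upper quartiles (0.24), the difference between tissues of Myh7b with equal upper quartiles (-0.20), and Myh9 between Tk2+/+ tissues with quantile normalization within tissue (0.11). Values that passed under no such setting changed sign as well, among them Myh2 and Myh4 in muscle with quantile normalization within the tissue (-0.12 and -0.05), Myh1 and Myh8 in heart with equal medians (0.33 and 0.26) and the difference of effects of Myh3 with quantile normalization within the tissue (-0.33). The Myh7b fall in heart also lost its call without Tk2+/+ heart 1 or 2 or Tk2-/- heart 1 (-0.29, -0.29 and -0.34) and in the methods' t-test (adjusted p = 0.106). Myh7, Myh9 and Myh10 passed in heart under all alternatives tried. A replicate block within each tissue changed 1 call, Myh9 between Tk2+/+ tissues (adjusted p = 0.100), and replicate number as a shared animal changed none. Between genotypes, same-numbered arrays correlated at -0.03, 0.12 and 0.13 in muscle and -0.19, -0.17 and -0.05 in heart. Between muscle and heart they correlated at -0.07, -0.09 and -0.08 in Tk2-/- mice and 0.10, -0.19 and 0.01 in Tk2+/+ mice. Whether same-numbered muscle and heart arrays share an animal is not stated. Few arrays limit precision, and signals near the offset of 16 carry little information on change.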
